A study of Mus musculus with 4 samples.

Results

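The mitochondrial genome of the mouse is represented in these data by 37 of the 53715 genes listed in the count tables, taken as every row whose symbol starts with mt-. They are 13 protein-coding genes, 2 rRNA genes and 22 tRNA genes, and all 37 lie on chromosome M in the annotation. Counts are unique molecular identifiers (UMIs), each standing for 1 captured RNA molecule. Of 80591179 UMIs in 51324 nuclei, 1785054 came from these genes. In all, 31 genes had at least 1 UMI, 19 had at least 100, and 6 had none.

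Single nuclei were profiled from the inguinal white adipose tissue, the subcutaneous fat of the groin, of C57BL/6N mice aged 6 months. The 4 libraries are 2 with the genotype label WT, called labelled wild type here, and 2 with the label PTRF knockout, numbered 1 and 2 in each group. Whether a library holds nuclei of 1 mouse or of pooled mice is not stated, so tests measure the spread between libraries. Cavin1 (formerly Ptrf) encodes a protein that coats caveolae. The labels give no treatment, promoter or Cre line and do not say what was deleted. Wherever 4 values follow each other below, they are those of labelled wild type 1, labelled wild type 2, labelled knockout 1 and labelled knockout 2. Cavin1 goes against the labels, with 42, 9, 817 and 1777 UMIs, and the names of the deposited files carry the opposite genotype. The groups are kept as labelled, so the group labelled knockout is the one rich in Cavin1. The libraries held 15920, 6821, 12446 and 16137 nuclei and 22579539, 8850369, 14030123 and 35131148 UMIs.

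Mitochondrial DNA is transcribed from both strands into long precursors that run through many genes, and the tRNAs lying between the other genes are cut out to release rRNAs and mRNAs. The mRNAs encode core subunits of respiratory complexes I, III and IV and of ATP synthase, while every other subunit, and all of complex II, is encoded in the nucleus and imported. Mitochondria lie outside the nucleus, in the cytoplasm, and white adipocytes carry fewer of them than brown adipocytes do.

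The 2 rRNAs made up most of the mitochondrially encoded signal, at 72.6% of its UMIs. The 13 protein-coding genes gave 26.7% and the 22 tRNA genes 0.630%. mt-Rnr2, the large rRNA of the mitochondrial ribosome (chromosome M, 1094 to 2675, GRCm38), stood at 9964, 10509, 14839 and 9559 CPM (the UMIs of a gene scaled to the same library total in every library). The small rRNA, mt-Rnr1 (70 to 1024), stood at 4769, 3827, 7669 and 5272 CPM. Both rRNAs were highest in labelled knockout 1. The labelled groups overlapped for mt-Rnr2 and did not for mt-Rnr1, whose level was higher in both libraries labelled knockout. With 2 libraries against 2, the smallest exact permutation p for such a separation is 0.333. The share of all genes without overlap was not counted. Per kb of gene, the scale on which genes are compared here, the mean over libraries was 7091 CPM for mt-Rnr2 and 5638 CPM for mt-Rnr1.

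Complex I, the NADH dehydrogenase that opens the respiratory chain, has 7 subunits encoded in the mitochondrial genome. mt-Nd1 was the most abundant of the 7, with 1815, 1644, 1712 and 1101 CPM and a mean of 1639 CPM per kb. mt-Nd4 followed at 1229, 1124, 1147 and 1014 CPM (819 CPM per kb), then mt-Nd2 at 529, 610, 634 and 465 CPM (539 CPM per kb). These 3 genes were lowest in labelled knockout 2. mt-Nd5 stood at 787, 563, 650 and 489 CPM (341 CPM per kb). mt-Nd6, the protein-coding gene of the opposite strand, was far lower at 26.3, 31.1, 31.1 and 19.8 CPM (52.2 CPM per kb). It overlaps mt-Nd5 by 14 bases, and since strand-specific counting is not stated, reads in that overlap cannot be told apart.

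mt-Cytb, the only subunit of complex III encoded there, was the second most abundant mRNA, at 1617, 1533, 1472 and 1135 CPM (1258 CPM per kb). mt-Co1, the catalytic subunit of cytochrome c oxidase (complex IV), stood at 887, 858, 790 and 521 CPM (494 CPM per kb). Again labelled knockout 2 was the lowest library for both. The labelled groups did not overlap for either gene, with the libraries labelled knockout lower, the direction opposite to mt-Rnr1. As for mt-Rnr1, the smallest exact permutation p for this is 0.333, and the share of all genes without overlap was not counted. Neither gene was called between the labelled groups, so the separation is no result about them. The remaining subunits of complex IV were almost uncounted: mt-Co2 had 7 UMIs and mt-Co3 had 2 over all libraries. Both genes of ATP synthase were as sparse, with 11 UMIs for mt-Atp6 and 0 for mt-Atp8.

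**Figure D1:**
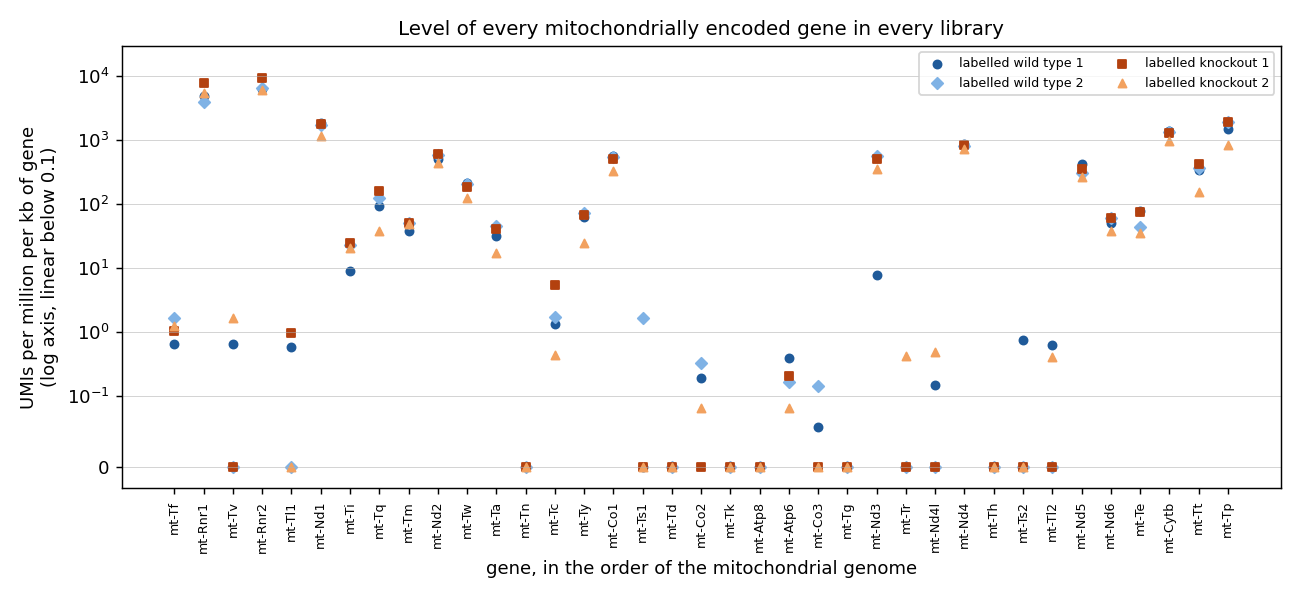
Level of the 37 genes in each library, in the order of the mitochondrial genome, as CPM per kb of gene on a log axis that is linear below 0.1. Each point is 1 library. Levels drop near 0 between mt-Ts1 and mt-Nd4l except at mt-Nd3, which in labelled wild type 1 stands at 7.89 against 350 to 575 in the other libraries.

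The sparse genes lie side by side. From mt-Td to mt-Nd4l (chromosome M, 6942 to 10173, 3232 bases) there are 6 protein-coding and 4 tRNA genes, and the 9 of them other than mt-Nd3 held 27 UMIs in all. The annotation places pseudogenes on chromosome 1, minus strand, whose transcripts match genes of this stretch. Over their aligned length, Gm28661 equals mt-Co2 (681 bases), Gm10925 equals mt-Atp6 (678 bases), Gm28437 equals mt-Co3 (783 bases) and Gm10222 equals mt-Nd4l (294 bases), each with 0 differences. Their own counts were low too, at 32, 31, 47 and 25 UMIs. A read from such a stretch fits both places equally well, and the labels do not say how the authors' counting treated such reads.

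These 4 genes have 1 to 3 bases outside their copy. mt-Nd4 and mt-Co1, on either side of the stretch, have far more bases outside theirs and had high counts. mt-Nd4 equals Gm28439 over its first 876 bases and has 502 bases outside it, and it was counted at 89413 UMIs against 3 for the copy. mt-Co1 aligns to Gm29216 over its last 492 bases with 6 differences, has 1053 bases outside it, and was counted at 56996 UMIs against 71. mt-Atp8, with no UMI, shares 43 of its 204 bases with mt-Atp6. That overlap is shown because reads within it belong to 2 genes at once; capitals mark the shared bases, chrM:7907-7989 on the plus strand of GRCm38.
mt-Atp8 end and mt-Atp6 start: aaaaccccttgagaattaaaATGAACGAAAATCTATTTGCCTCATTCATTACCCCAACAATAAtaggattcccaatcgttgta

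mt-Nd3, a further complex I subunit, differs from its copy Gm28438 at 1 of 345 aligned bases, T3C, with the base of mt-Nd3 before the position and that of the copy after it, counted from the first base of mt-Nd3. The first 60 bases of each are given because this base is the sole letter that separates them over the aligned length; it is in capitals. mt-Nd3 is read on the plus strand (chrM:9459-9518, GRCm38) and Gm28438 on the minus strand (chr1:24613060-24613119, GRCm38).
mt-Nd3: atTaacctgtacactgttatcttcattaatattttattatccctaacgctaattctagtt
Gm28438: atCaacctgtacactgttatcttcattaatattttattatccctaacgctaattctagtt

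The count of this pair fell almost wholly on 1 gene or the other, and labelled wild type 1 was opposite to the other libraries. mt-Nd3 had 62, 1770, 2470 and 4283 UMIs, and Gm28438 had 4828, 6, 10 and 13. Gm28438 therefore took 98.7% of the pair's UMIs in labelled wild type 1 (exact 95% interval 98.4 to 99) and 0.338%, 0.403% and 0.303% in the others. Intervals here cover counting error only. The sum of the pair was 217, 201, 177 and 122 CPM, a far narrower range than either gene alone. The split held in each of the 13 classes of nuclei compared below: Gm28438 took at least 97.5% of the pair in labelled wild type 1, at most 2.50% in labelled wild type 2, at most 7.35% in labelled knockout 1 and at most 0.862% in labelled knockout 2. Strain is the same in all labels, but the labels do not give the base that each library carries at this position. What sets the split was not tested.

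**Figure D2:**
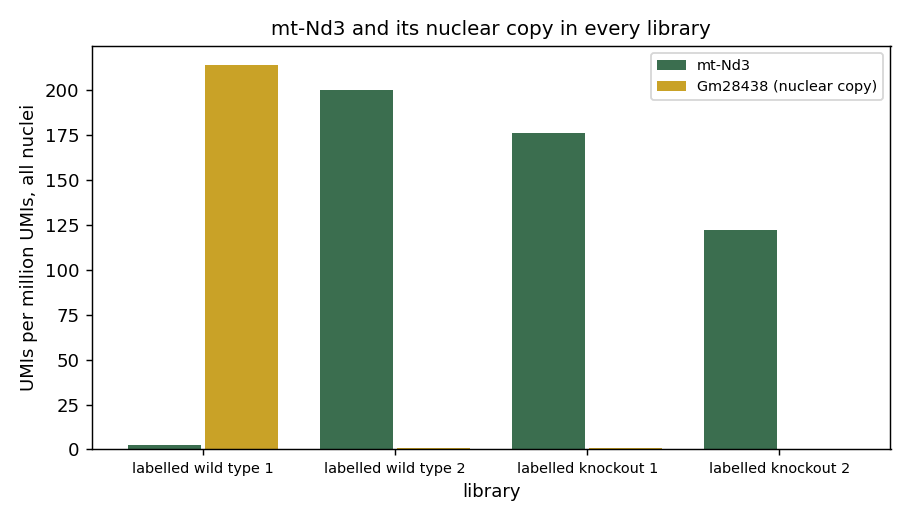
CPM in all nuclei for mt-Nd3 and its nuclear copy Gm28438, as bars from 0 for each library. In labelled wild type 1 the copy has 214 and mt-Nd3 2.75, and in the other 3 libraries mt-Nd3 has 122 to 200 and the copy less than 1.

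Of the 22 tRNA genes, 9 had at least 100 UMIs, 8 had 1 to 9 and 5 had none. mt-Tp, the proline tRNA gene, stood well above the rest, with 2273, 1169, 1836 and 1964 UMIs, or 101, 132, 131 and 55.9 CPM. Its neighbour mt-Tt, for threonine, lies on the opposite strand (15289 to 15355, next to mt-Tp at 15356 to 15422) and had 511, 218, 394 and 361 UMIs. For both, labelled knockout 2 was lowest in CPM. The others with 100 or more were mt-Tw (tryptophan, 924 UMIs), mt-Tq (glutamine, 490), mt-Te (glutamate, 309), mt-Ty (tyrosine, 261), mt-Tm (methionine, 256), mt-Ta (alanine, 159) and mt-Ti (isoleucine, 102). Those at 0 were mt-Tn, mt-Td, mt-Tk, mt-Tg and mt-Th. Genes of the minus strand, 9 in all, held 10472 of the mitochondrially encoded UMIs.

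The share of UMIs that was mitochondrially encoded differed between the cell types of the tissue. Nuclei were clustered without the 37 genes and without their nuclear copies, which gave 18 clusters, and a class is the nuclei of clusters that resemble a cell type by its markers. The comparison takes the 13 classes for which each library has 50 nuclei or more. Of these, clusters 0, 3 and 5 keep their number because the markers did not name them. Milk protein genes lead cluster 3, clusters 0 and 5 have no marker of any listed cell type among their 100 leading genes and a median of 674 and 760 UMIs, and the vascular endothelial class has 5 lymphatic markers among its 100 leading genes. Adipocyte nuclei had the lowest mean share, 0.927% ± 0.173 (SD, n = 4 libraries), with 0.729%, 0.890%, 1.15% and 0.940% in the libraries. Myoepithelial or smooth muscle nuclei were next at 1.04% ± 0.311, and these 2 classes held the 2 lowest places in every library, in either order. Progenitors, the stromal precursors of adipocytes, came next above these 2 in every library, at 1.55%, 1.08%, 2.08% and 1.35% (mean 1.51% ± 0.423), followed in every library by cluster 3 (1.66% ± 0.451).

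Macrophages, B cells, dendritic nuclei, cycling nuclei and clusters 0 and 5 lay in the middle by their means, where the order changed between libraries. Macrophages had a mean share of 2.21% ± 0.382, B cells 2.37% ± 0.715, dendritic nuclei 2.70% ± 1.08, cluster 0 3.08% ± 1.06, cluster 5 3.32% ± 1.08 and cycling nuclei 3.38% ± 1.23. From dendritic nuclei to cycling nuclei, each class was above the one before it in only 2 of 4 libraries, so those neighbours did not differ beyond their spread. T or NK nuclei reached 4.23% ± 1.22.

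Luminal hormone-sensing nuclei, mammary epithelial cells that lie within this fat pad, had the highest mean, 4.74% ± 0.461, and were highest in 3 of 4 libraries (4.74%, 5.28%, 4.16% and 4.78%). Vascular endothelial nuclei varied most, with 3.06%, 5.24%, 7.24% and 2.24% (mean 4.45% ± 2.26), so that in rank they ran from 7 to 13 from the lowest. Depth differed too, with a median of 1930, 1861, 1554 and 4355 UMIs per adipocyte nucleus and 2291, 1910.5, 1626 and 1947.5 per luminal hormone-sensing nucleus. When each nucleus was thinned to 500 UMIs, the mean was 4.73, 5.2, 6.08 and 6.95 mitochondrially encoded UMIs per adipocyte nucleus and 25.4, 24.0, 25 and 24.1 per luminal hormone-sensing nucleus. Adipocytes were below luminal hormone-sensing nuclei in every library on this scale too. Thinning leaves the expected share of a nucleus unchanged, so these means restate the share per nucleus. The part of depth in the difference between classes was not tested.

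**Figure D3:**
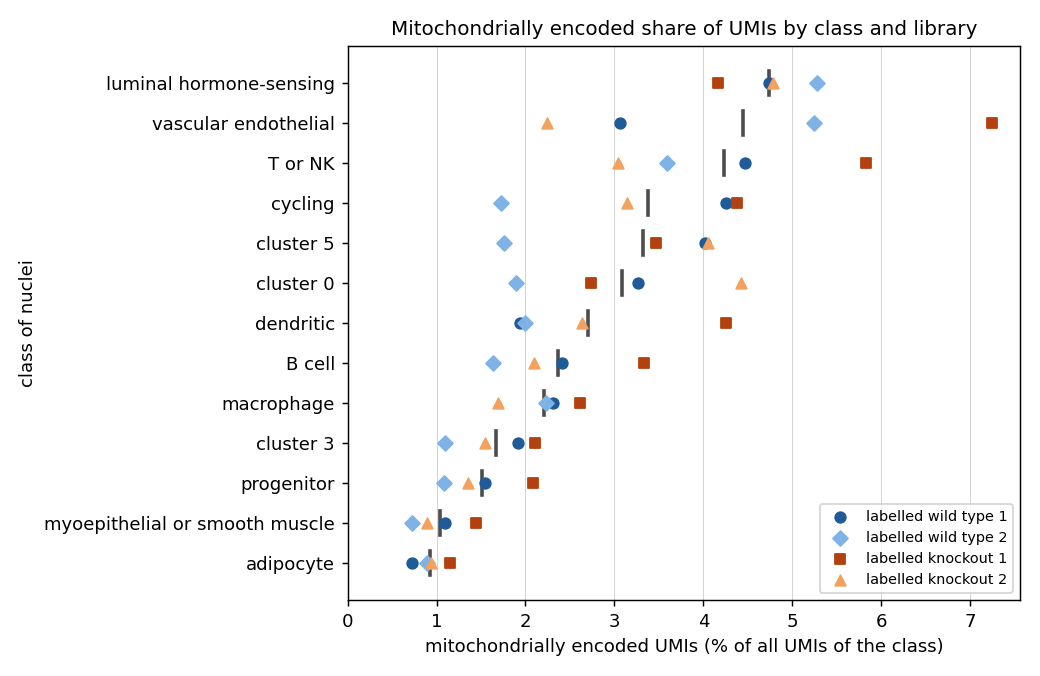
Mitochondrially encoded UMIs as a percentage of all UMIs of a class, 1 point per library and a bar at the mean of the 4. Adipocyte points lie between 0.729 and 1.15 and luminal hormone-sensing points between 4.16 and 5.28, while vascular endothelial points span 2.24 to 7.24.

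Nuclei with more than 10% mitochondrially encoded UMIs, a limit often used to discard barcodes, were kept because the share is the measurement. They numbered 1257 of 51324 and were unevenly spread: 31.5% of them were T or NK nuclei and 1.27% were adipocytes. Within classes they made up 8.76% of luminal hormone-sensing, 7.49% of vascular endothelial and 6.21% of T or NK nuclei, against 0.279% of adipocytes and 0.299% of progenitors. In labelled knockout 1 they were 21.2% of vascular endothelial and 13.1% of T or NK nuclei. A filter at this limit thus removes nuclei of some classes far more often than of others.

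The mitochondrial transcriptome was not made up in the same way in every class. In luminal hormone-sensing nuclei protein-coding genes gave 56.7%, 47.1%, 45.9% and 58.7% of mitochondrially encoded UMIs, the highest value of the 13 classes in every library. Cluster 0 had 14.2%, 18.0%, 11.7% and 7.04%, and cluster 5 had 10.7%, 13.5%, 9.56% and 7.70%, which left rRNA as nearly all of the rest. Cluster 3 (36.5% ± 4.83, SD, n = 4) and dendritic nuclei (33.9% ± 3.11) were also high, and adipocytes (23.2% ± 5.53) and B cells (20.4% ± 1.26) lay between. For the 27.8% of adipocytes in labelled wild type 2 the exact 95% interval ran from 26.9 to 28.7. The part of free RNA in these values was not tested.

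**Figure D4:**
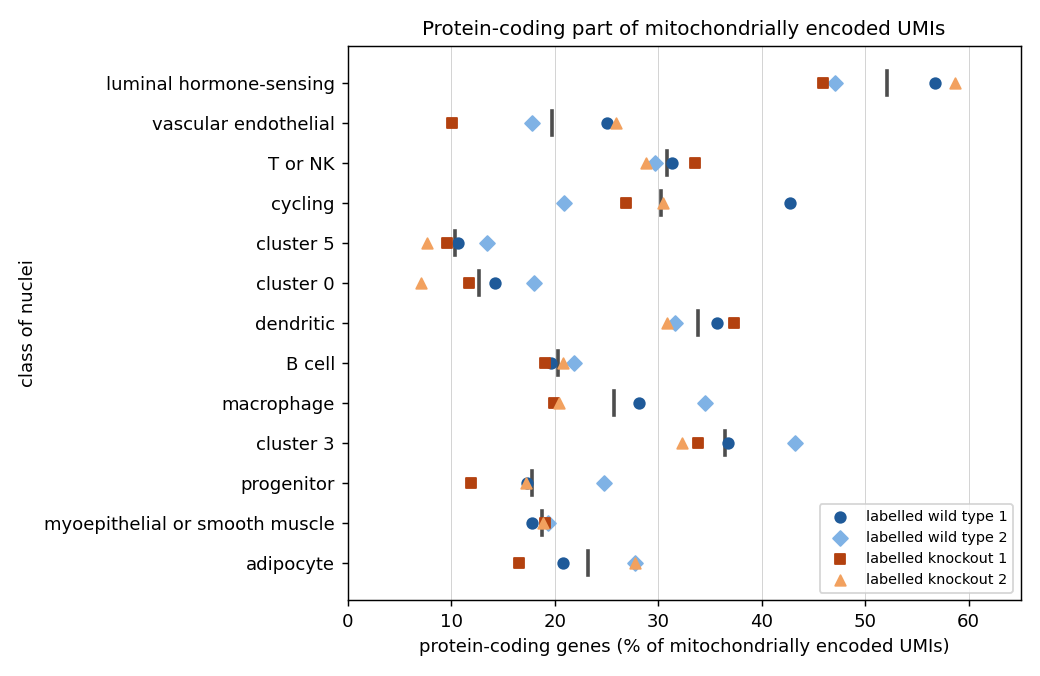
Protein-coding genes as a percentage of mitochondrially encoded UMIs in each class, 1 point per library and a bar at the mean, with classes in the order of their total share. Luminal hormone-sensing nuclei (45.9 to 58.7) lie above every other class, and clusters 0 and 5 lie at 18.0 or less.

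Single genes within that makeup also kept an order. In dendritic nuclei mt-Co1 had 0.840, 0.910, 0.743 and 0.689 UMIs for each UMI of mt-Cytb, the highest ratio of the 13 classes in every library. Luminal hormone-sensing nuclei had 0.390, 0.458, 0.309 and 0.362, the lowest in 3 libraries. The ratio of mt-Nd1 to mt-Cytb was highest in progenitors (1.29, 1.49, 1.55 and 1.44) and macrophages (1.55, 1.30, 1.59 and 1.28), which shared the 2 highest places in every library. Adipocytes had 0.929, 0.998, 0.991 and 0.774 for this ratio. mt-Tp was 11.1, 18.5, 7.90 and 8.12 per 1000 mitochondrially encoded UMIs in B cells, where it ranked highest in 3 libraries and next to highest in labelled wild type 2. It was lowest in luminal hormone-sensing nuclei in every library (1.35, 1.20, 1.66 and 0.884).

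Adipocyte nuclei were set against progenitor, macrophage and vascular endothelial nuclei by edgeR on summed counts, with the library as a block. A gene is called where its Benjamini-Hochberg adjusted p over all genes tested is below 0.05, and levels in these comparisons are TMM-normalised CPM. Against vascular endothelial nuclei, 11 of the 13 mitochondrially encoded genes tested were called lower in adipocytes and 0 higher, with a median log2 difference of -1.32, beside 36.3% of all 12360 genes called (16.0% lower, 20.3% higher) and a median of 0.03 over all genes. mt-Co1 stood at 217.1, 296.5, 215.6 and 256.1 CPM in adipocytes and 1061, 1205, 770.1 and 490.2 CPM in vascular endothelial nuclei. Every adipocyte value was below every endothelial one, and mt-Co1 fell by 1.77 on the log2 scale (SE 0.22, adjusted p = 1.131e-06). mt-Rnr2 fell by 1.80 (SE 0.27, adjusted p = 1.732e-05), mt-Cytb by 1.32 (SE 0.21, adjusted p = 2.462e-05), and mt-Nd3 by 1.17 (SE 0.29, adjusted p = 0.002745). The genes not called were mt-Nd6, at a log2 difference of -0.88 (adjusted p = 0.0693), and mt-Tq at -0.28 (adjusted p = 0.781). In labelled wild type 1, mt-Nd3 had 1 UMI in each of these classes.

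Against macrophages 7 of 15 genes tested were called lower and 0 higher (median -0.76, against -0.07 over all 14256 genes, of which 45.3% were called and 22.5% called lower). mt-Nd1 stood at 400.3, 613.7, 474.5 and 605.4 CPM in adipocytes and 1871, 1734, 1301 and 845.9 CPM in macrophages, without overlap. It fell by 1.42 (SE 0.23, adjusted p = 4.816e-05) and mt-Co1 by 1.36 (SE 0.21, adjusted p = 1.849e-05), and both kept the call under all 8 alternatives. mt-Rnr2 (-0.80), mt-Rnr1 (-0.74), mt-Nd5 (-0.85), mt-Cytb (-0.79) and mt-Nd2 (-0.73) were the others called. The count was 2 of 15 without labelled wild type 1, 4 of 15 without labelled wild type 2 and 4 of 15 when nuclei over 10% were left out. Of all genes, 2685 of 13802, 2972 of 14936 and 3184 of 14749 were called lower in that order.

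Against progenitors the differences were small, and 2 of 14 genes tested were called lower and 0 higher, beside 41.2% of all 14541 genes called and 20.2% called lower, so the members were called lower no more often than genes in general. mt-Rnr1 stood at 2175, 2018, 3382 and 2956 CPM in adipocytes and 4124, 2333, 5969 and 3918 CPM in progenitors. It was lower in adipocytes in each library although the 2 sets of values overlap, and it fell by 0.59 (SE 0.18, adjusted p = 0.019). mt-Nd1 fell by 0.45 (SE 0.17, adjusted p = 0.0486), at 372.9, 587, 455 and 557.2 CPM against 702.6, 746.5, 639.5 and 571.7. The call of mt-Nd1 was lost in 6 of 8 alternatives. mt-Cytb (0.20) and mt-Nd4 (0.28) had log2 differences above 0 and were not called, and the median of the 14 genes was 0.02. Without labelled wild type 1, and without labelled knockout 1, the count was 0.

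Nuclear-encoded subunits of the same complexes were called higher in adipocytes against progenitors and macrophages more often than genes in general. The list holds 64 genes of complexes I to IV and ATP synthase. It includes Cox10 and Cox15, which serve the assembly of complex IV and are not subunits of it. Cox10 was called higher in each comparison below and is part of the counts. For short, all genes of the list are called subunits here. Of the 59 tested against progenitors, 44 were called higher in adipocytes and 0 lower (median 1.13, against -0.04 over all genes, of which 21.0% were called higher). Cox8a of complex IV (2.08, SE 0.23), Uqcrq of complex III (2.00, SE 0.29), Sdhb of complex II (1.43, SE 0.21), Atp5b of ATP synthase (1.20, SE 0.21) and Ndufs1 of complex I (0.89, SE 0.17) were among them. Against macrophages 40 of 58 were called higher and 0 lower (median 1.06), beside 22.8% of all genes called higher, with Cox8b highest at 4.10 (SE 0.73). Against vascular endothelial nuclei 12 of 60 were called higher and 0 lower (median 0.42), among them Cox5a (1.39, SE 0.35) and Sdhb (1.29, SE 0.33). That count is about the 20.3% of all genes called higher there, so it is no result about the subunits. Without labelled knockout 2 the counts against macrophages and vascular endothelial nuclei were 21 of 53 and 6 of 51. Of all genes, 2306 of 12531 and 1585 of 10644 were called higher in those fits. The 37 mitochondrially encoded genes were removed before the 2000 variable genes that formed the classes were chosen. Of these 64 genes, 0 were among the variable genes. The classes still come from other genes of the same nuclei, so these comparisons describe them and are no independent test.

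**Figure D5:**
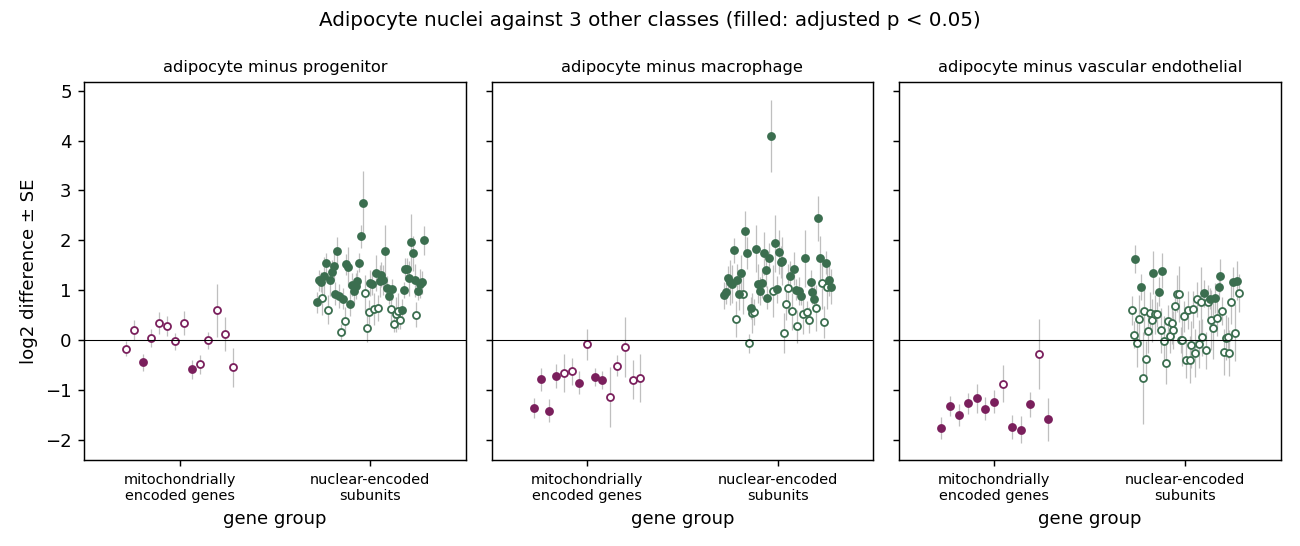
Log2 difference of adipocyte nuclei from progenitor, macrophage and vascular endothelial nuclei, with its SE, for each mitochondrially encoded gene tested and each nuclear-encoded subunit tested. Filled points have an adjusted p below 0.05: every filled mitochondrially encoded gene lies below 0 and every filled nuclear-encoded subunit above 0.

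Of 8 regulators of mitochondrial biogenesis, 6 were called higher and 1 lower in adipocytes against progenitors, beside the 21.0% of all genes called higher. Among the variable genes that formed the classes was 1 of these 8, so its class differences are partly built in. Which of the 8 it was is not reported here, so this limit may hold for any of them. Ppargc1a, which encodes the coactivator PGC-1α (3.19, SE 0.19), Ppargc1b (2.78, SE 0.18) and Esrra, the nuclear receptor ERRα (1.86, SE 0.19), led the 6, and Pprc1 fell by 0.75 (SE 0.22). Ppargc1a was also called higher against macrophages (3.56) and vascular endothelial nuclei (3.80). In those comparisons 3 of the 8 were called higher and 2 lower, and 4 higher and 0 lower, beside 22.8% and 20.3% of all genes called higher. Of genes that copy, transcribe or process mitochondrial nucleic acids, 8 of 26 tested were called higher against progenitors and 0 lower, beside the same 21.0%, including Hsd17b10, a subunit of the mitochondrial RNase P (2.70, SE 0.41), and Ssbp1, the mitochondrial single-stranded DNA binding protein (0.83, SE 0.22). Against macrophages 8 of 24 were called higher, beside 22.8% of all genes, and against vascular endothelial nuclei 1 of 23, a smaller share than the 20.3% of all genes, with 0 lower in either.

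Cytosolic transcripts, a list of 20 abundant mRNAs such as those of ribosomal proteins, had a lower summed level in adipocytes than in vascular endothelial nuclei and macrophages in every library, and than in progenitors in every library except labelled wild type 2. In adipocytes the sum was 602, 595, 693 and 791 CPM. It was 2304, 1263, 3277 and 2308 CPM in vascular endothelial nuclei, 1746, 1047, 1624 and 2148 CPM in macrophages and 1050, 461, 741 and 1257 CPM in progenitors. Of 18 tested, 11 were called lower in adipocytes against vascular endothelial nuclei, 11 against macrophages and 4 against progenitors, and 0 were called higher. Of all genes 16.0%, 22.5% and 20.2% were called lower in that order, so the count against progenitors is about that of genes in general, and 6 of the 18 had differences above 0 there. Tmsb4x had log2 differences of -2.92, -2.73 and -1.15 in that order. Of 6 RNAs listed as retained in the nucleus, 6, 5 and 6 were tested in that order. Of those, 4, 4 and 3 were called higher and 1, 0 and 2 lower. Of all genes 20.3%, 22.8% and 21.0% were called higher. The lower calls were Meg3 against vascular endothelial nuclei (-3.75), and Meg3 (-5.98) and Kcnq1ot1 (-0.78) against progenitors. Malat1 was called higher in adipocytes in the 3 comparisons (1.31 against vascular endothelial nuclei, 1.12 against macrophages and 0.64 against progenitors). The part of these differences in the mitochondrially encoded results was not tested.

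Over the 52 sums of 13 classes and 4 libraries, the share ran with the cytosolic list at a Spearman correlation of 0.55, with the nuclear-encoded subunits at 0.17, with Malat1 at -0.32 and with the median UMIs per nucleus at -0.35. Sums of 1 library share its depth and preparation, so these are descriptions. Among 1684 other genes with at least 10 UMIs in every sum, the 5 whose level ran closest to the share were Tmsb4x (0.64; thymosin β4, which binds actin monomers), Chd3 (0.636; a chromatin remodeller), Rps9 (0.633; a ribosomal protein), Rplp1 (0.632; a ribosomal stalk protein) and Tpm3 (0.61; a tropomyosin). Tmsb4x and Rplp1 are also on the cytosolic list.

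Between the labelled groups, no mitochondrially encoded gene passed the test. Over all nuclei the share of UMIs was 2.18%, 2.11%, 2.93% and 1.98%, or 2.14% ± 0.0488 (SD, n = 2) in the group labelled wild type and 2.46% ± 0.674 in that labelled knockout. The groups overlapped (two-sided exact permutation p = 1; with 2 libraries against 2 the smallest p is 0.333). edgeR called 0 of the 19 members tested, 0 had an unadjusted p below 0.05, and DESeq2 called 0, beside 0.0992% of all 28233 genes called. Of those 28233 genes, 342 had an unadjusted p below 0.05. Log2 differences, labelled knockout minus labelled wild type, ran from mt-Ty at -0.63 (SE 0.55) to mt-Nd3 at 0.69 (SE 2.37), with 5 of 19 above 0 and a median of -0.29 against 0.02 over all genes. Those of the rRNAs were 0.55 (mt-Rnr1, SE 0.66) and 0.22 (mt-Rnr2, SE 0.70), and those of mt-Nd1, mt-Cytb and mt-Co1 were -0.34, -0.29 and -0.45. Summed with Gm28438, mt-Nd3 had a log2 difference of -0.51 (SE 0.49).

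Within the 13 classes edgeR called 0 members as well. The background in all genes was 0.443% in adipocytes, 0.0485% in progenitors, 2.48% in vascular endothelial nuclei, 0.0108% in macrophages, 0.0291% in B cells, 0.0385% in T or NK nuclei and 0.0530% in dendritic nuclei. It was 0.00936% in myoepithelial or smooth muscle nuclei, 0% in luminal hormone-sensing nuclei, 0.0126% in cycling nuclei, 0.211% in cluster 0, 0.0127% in cluster 3 and 0.110% in cluster 5. At an unadjusted p below 0.05 there were 5 members in dendritic nuclei, 2 each in cycling, macrophage and vascular endothelial nuclei, 1 each in B cells, cluster 0 and cluster 5, and 0 in the other 6 classes. Members tested were 11, 12, 12, 12, 14, 16 and 13 in that order. Of all genes, 407 of 5663, 139 of 7925, 138 of 9235, 595 of 6129, 194 of 13727, 901 of 17030 and 747 of 16341 were below it. DESeq2 called 0 in each class. Share values overlapped between the groups in 11 classes and did not in adipocytes (0.810% ± 0.114 against 1.04% ± 0.147, SD, n = 2) and dendritic nuclei (1.97% ± 0.0445 against 3.44% ± 1.15), each with an exact permutation p of 0.333, the smallest possible. Labelled knockout 1 had the highest share of the 4 libraries in 10 of 13 classes, and labelled wild type 2 the lowest in 7.

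Dendritic nuclei came nearest to a difference between the labelled groups. Their mt-Rnr1 had a log2 difference of 1.10 (SE 0.24, adjusted p = 0.21), mt-Nd4 of 0.92 (adjusted p = 0.458) and mt-Cytb of 0.87 (adjusted p = 0.488), with 10 of 11 members above 0 and a median of 0.86. The cytosolic transcripts lay above 0 there as well: 15 of 15 tested had differences above 0, with a median of 0.92 against -0.02 over all genes, and 1 was called, Actb (1.57, SE 0.24, adjusted p = 0.0272). Other classes had this too: 18 of 18 lay above 0 in luminal hormone-sensing nuclei (median 0.60) and 16 of 17 in B cells (0.76). In vascular endothelial nuclei 16 of 17 did (0.38), with B2m called (1.51, SE 0.34). In adipocytes 8 of 18 and in progenitors 10 of 18 did. The median of the mitochondrially encoded genes was -0.33 in luminal hormone-sensing and -0.21 in vascular endothelial nuclei. The part of cytosolic transcripts in the mitochondrially encoded differences was not tested. Labelled knockout 1 held 109 of these nuclei and labelled knockout 2 held 141. Without labelled knockout 2 the median log2 difference of the 11 members was 1.23, and without labelled knockout 1 it was 0.13. Each of these fits leaves 1 library in the group labelled knockout.

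mt-Nd3 is the gene whose comparison rests on 1 library. Without labelled wild type 2, the group labelled wild type consists of labelled wild type 1 alone, where the copy takes the counts, and mt-Nd3 was then called higher in all nuclei (log2 5.52, SE 0.95, adjusted p = 6.535e-05) and in 12 of 13 classes, the exception being macrophages. The lone library is assumed in that fit to vary like the others. Summed with Gm28438, mt-Nd3 was called in 0 classes and its log2 difference in adipocytes was 0.09 (SE 0.35). The difference between adipocytes and progenitors in the label effect (interaction) was called for 0 of 14 members, beside 0.186% of all 14541 genes (0.103% lower and 0.0825% higher). It was 0.64 for mt-Cytb (SE 0.33, adjusted p = 0.874) and -0.04 for mt-Rnr1 (SE 0.36, adjusted p = 0.999). Of the nuclear-encoded subunits 0 of 63 were called between the labelled groups in all nuclei and 0 in any class, with a median of 0.19 in all nuclei. The cytosolic list stood at 1708, 882, 1483 and 2109 CPM in all nuclei and Malat1 at 55861, 60705, 50216 and 49896 CPM. Of the 6 RNAs listed as retained in the nucleus, edgeR called 1 between the labelled groups in adipocytes, beside 0.443% of all genes. It was Snhg11 (1.67, SE 0.37, adjusted p = 0.0267).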

How the data were processed

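Nuclei of inguinal fat from 4 libraries were analysed from the deposited tables of UMI counts per gene and barcode, in which polyA RNA was counted per the labels and nothing had been normalised by the authors. Per the submitters' processing notes, GRCm38 (mm10) and Seurat 4.3.0 were used. For the aligner, the counter, its use of strand and its handling of reads that fit several places, no source used here gives a statement.

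Barcodes with at least 500 UMIs and 300 genes were kept, with no limit on the mitochondrial share. No doublet caller was run, so doublets remain. Pairs of libraries share 53 to 150 barcodes. Nuclei were clustered with scanpy 1.11.5 (2000 variable genes, 30 principal components, 15 neighbours, Leiden resolution 1) after removal of the 37 genes and 9 nuclear copies. A cluster was named from at least 3 markers among its 100 leading genes, unless markers of another class outnumbered its own among the first 10. Counts were summed per class and library and tested with edgeR 4.0.16 (quasi-likelihood, TMM, filterByExpr), two-sided, with Benjamini-Hochberg adjustment over all genes tested and a threshold of 0.05; contrasts of classes had the library as a block. Shares were compared by an exact permutation test, and intervals are exact binomial.

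Alternatives were DESeq2 1.42.0, no filter on low counts, at most 10% mitochondrial UMIs, at least 1000 UMIs, a replicate block and each library left out. The tests were also run on simulated data. Named were the 13 protein-coding and 2 rRNA genes, tRNA genes with at least 100 UMIs, some of the called genes of the companion lists and the 5 genes most like the share. Positions and sequences are from GENCODE M21 (GRCm38), which holds all 37 genes. The genes, the lists and the tests were chosen with earlier results of these data known.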

Additional observations from a re-analysis of the deposited data

How the results depend on the processing

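Between the labelled groups the count of mitochondrially encoded genes called, 0 in all nuclei and in each of 13 classes, depended on single libraries. With each library left out in turn it ran from 0 to 1 in all nuclei, B cells, T or NK, adipocyte, cluster 3, cycling, luminal hormone-sensing, myoepithelial or smooth muscle, progenitor and vascular endothelial nuclei, from 0 to 2 in clusters 0 and 5, and from 0 to 6 in dendritic nuclei. Without labelled wild type 2 the gene was mt-Nd3. Among the other calls, mt-Tp and mt-Tt in cluster 0 and mt-Tp in vascular endothelial nuclei were lower without labelled knockout 1. mt-Rnr1 was higher in clusters 3 and 5 without labelled wild type 1. Not every such call is listed, and each of these fits leaves 1 library in a group. With nuclei over 10% left out, 1 gene, mt-Nd3, was called in B cells. DESeq2, no filter on low counts and at least 1000 UMIs gave 0 in each. With the replicate number as a block the count was 0 in each. Same-numbered libraries deviated from their group means in opposite directions (r = -0.6). With 2 libraries a group, both pairs give this same value by construction. What the replicate numbers stand for is not stated. The crossed replicate block, chosen after seeing the data, gave 1 call in B cells, 1 in cluster 0, 1 in macrophages and 5 in dendritic nuclei. Of all genes it called 191 of 13727, 177 of 17030, 36 of 9235 and 81 of 5663 in that order.

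The log2 ratio of the share, labelled knockout to labelled wild type, was 0.17 in all nuclei. It was 0.46 as a mean over nuclei and -0.24 over the 13 protein-coding genes only. Over those genes it was also -0.33 in cluster 0, -0.16 in progenitors and -0.74 in macrophages, and as a mean over nuclei it was -0.01 in luminal hormone-sensing nuclei. The causes were not tested. Between classes, genes called lower in adipocytes ran from 0 to 2 against progenitors, from 2 to 9 against macrophages (4 with nuclei over 10% left out) and from 11 to 12 against vascular endothelial nuclei when single libraries were left out. Of 160 alternative values for the 20 called results, each a gene in a comparison, 138 kept the call, 22 lost it and 0 reversed. Some genes recur among the 20, and the alternatives share libraries. Nuclear-encoded subunits called higher ran from 35 to 43, from 21 to 41 and from 6 to 13 in that order. Cytosolic transcripts called lower ran from 1 to 8 against progenitors and from 4 to 10 against macrophages, with 5 without a filter and 6 by DESeq2. DESeq2's scaling moved the median of all genes by just over 0.1 (log2) in dendritic nuclei and against macrophages.

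With 2 libraries a group the exact test cannot go below 0.333, and mitochondrially encoded genes with few UMIs, the tRNA genes above all, were not tested in small classes. Labels and Cavin1 disagree, so the direction of every comparison between the labelled groups is that of the labels.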
